A study of Homo sapiens with 8 samples.

Results

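The genes described here are the aminoacyl-tRNA synthetases, 20 cytosolic and 16 mitochondrial enzymes, in SUDHL6 cells, an established human B-cell lymphoma line of the germinal-centre type. The 36 genes were taken by symbol from the deposited tables, which use the older names (WARS and GARS are now written with a final 1), and all 36 were present in each of the 3 tables. They are 36 of the 17467 genes that the tables share. RNA was sequenced from 8 libraries in 4 groups of 2, all from cells kept for 18 h with the DMSO vehicle or with one of MS8815, EPZ-6438 and MS8815N at 2.5 µM. MS8815 is described in the labels as a PROTAC against EZH2, a molecule that brings a ubiquitin ligase to its target. EZH2 is the H3K27 methyltransferase of polycomb repressive complex 2. They describe EPZ-6438 (tazemetostat) as the matched inhibitor of the enzyme's SET domain and MS8815N as an analog of the PROTAC that is not itself one. The concentration is stated for DMSO in the same way as for the compounds. The study uses 1 cell line, and the labels speak of duplicates without naming separate cultures. The p-values therefore cover only the spread between 2 libraries of a group, and that spread may be technical. Either of 2 library kits was used, and the labels do not say which library had which.

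Each synthetase joins 1 amino acid to its transfer RNAs, and the charged transfer RNAs feed translation. Cytosolic enzymes serve the ribosomes of the cytosol, while separate nuclear genes, mostly named with a final 2, encode the enzymes of the mitochondrial matrix. GARS and KARS are exceptions, since each of these genes makes both forms. When charging fails or the endoplasmic reticulum is stressed, kinases phosphorylate the initiation factor eIF2, which raises translation of the transcription factor ATF4. Many cytosolic synthetase genes are known ATF4 targets, together with genes of serine and asparagine synthesis and amino acid transport. In the text below, 12 cytosolic genes that are commonly listed as ATF4 targets (AARS, CARS, EPRS, GARS, IARS, LARS, MARS, NARS, SARS, TARS, WARS and YARS) are set beside the other 8 (DARS, FARSA, FARSB, HARS, KARS, QARS, RARS and VARS).

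ATF4 binds as a dimer with C/EBP proteins to a composite element, and the letters TGATGNAA on either strand were searched in the RefSeq promoter windows of build GRCh38.p14, which run from 250 bases before to 50 bases after each gene's start. Windows were matched for 30 of the 36 genes (not for DARS, LARS, VARS, YARS, AARS2 and VARS2). The letters occurred in 3.62% of all 35116 windows (1270) and in 7 of the 30 synthetase windows (23.3%). By compartment they occurred in 6 of 16 cytosolic windows (37.5%) and 1 of 14 mitochondrial windows (7.14%). All 6 cytosolic windows belonged to the 10 matched genes of the ATF4-listed group (60.0%), and 0 of 6 windows of the other cytosolic genes held the letters. The 7 stretches are shown because they are the windows with a match. Each reads 5′ to 3′ along the gene's strand, with the matching letters in capitals. TTGCATCA is the match on the opposite strand.
AARS, chr16:70289675-70289704, minus strand: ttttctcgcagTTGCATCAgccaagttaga
CARS, chr11:3057407-3057436, minus strand: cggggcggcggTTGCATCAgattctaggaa
IARS, chr9:92293692-92293721, minus strand: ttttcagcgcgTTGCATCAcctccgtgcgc
MARS, chr12:57488053-57488082, plus strand: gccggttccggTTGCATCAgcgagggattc
NARS, chr18:57621804-57621833, minus strand: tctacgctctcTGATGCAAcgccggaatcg
TARS, chr5:33440956-33440985, plus strand: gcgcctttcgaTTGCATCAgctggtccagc
YARS2, chr12:32756076-32756105, minus strand: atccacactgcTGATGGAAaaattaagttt

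In the 6 cytosolic genes the variable base gives the same 8 letters, read on one strand or the other, and only YARS2 differs. The first matching base lay 2 bases before the start in CARS, 4 before in MARS and 13 before in IARS. In TARS it lay 2 bases after the start base and in NARS 14 after. The match in AARS was farther away, 187 bases before the start, and that in YARS2 was 197 before. WARS, SARS, GARS and EPRS had windows without these letters, which says nothing of elements elsewhere in those genes.

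The estimated depth was 26.0 to 34.1 M reads in the DMSO, EPZ-6438 and MS8815N libraries and 13.0 and 14.6 M reads in the MS8815 libraries. The summed normalised count of 26 B-cell genes was 270135 to 270766 with DMSO, 269477 to 270362 with EPZ-6438 and 268002 to 268630 with MS8815N, but 138886 to 140171 with MS8815. That of 24 genes of epithelial and fibroblast cells was 19394 to 19684 with DMSO, 21997 to 22159 with EPZ-6438, 22542 to 23575 with MS8815N and 104258 to 104931 with MS8815. Most of the DMSO sum came from 1 gene, VIM, with 13703.6 and 13892.2, and VIM had 39870.2 and 39794.3 with MS8815. Of 6 T-cell and NK-cell genes, 2 were in all tables, with sums of 35 to 74. Of the genes of these 3 lists that all tables hold, none was at 0 in both libraries of a group. The MS8815 libraries therefore stand apart from the others and go against the labelled cell line in part, and the counts and named genes of each comparison with them are given below under 3 scalings. In bulk RNA, fewer cells of a type and less RNA per cell cannot be told apart.

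The cytosolic transcripts were abundant and the mitochondrial ones mostly were not. With DMSO the cytosolic enzymes had 953 (CARS) to 3900 (MARS) normalised counts per kb of transcript, with a median of 2040. The mitochondrial enzymes had 18.3 (LARS2) to 1960 (IARS2), with a median of 468. CARS2 was next to IARS2 among the mitochondrial genes at 1360 per kb, level with AARS. FARSA, one of the subunits of the phenylalanyl enzyme, stood at 3700 per kb and its partner FARSB at 1680. In summed normalised counts, not corrected for length, the cytosolic genes took 0.425% and 0.415% of all counts in the DMSO libraries. They took 0.457% in both MS8815N libraries, 0.406% in both EPZ-6438 libraries, and 0.34% and 0.35% with MS8815. The 2 libraries of a group thus lay close together, and no 2 groups overlapped. The mitochondrial share was 0.0735% in both DMSO libraries, 0.0706% and 0.0704% with MS8815N, 0.0703% and 0.0704% with EPZ-6438, and 0.0502% and 0.0523% with MS8815.

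By the median, replicates of these genes were closer than those of all genes, which were not matched to them for level. The median absolute log2 difference between the 2 libraries of a group was 0.038 for cytosolic and 0.061 for mitochondrial synthetases with DMSO, against 0.132 over all genes. With MS8815 it was 0.121 for cytosolic and 0.174 for mitochondrial synthetases, against 0.208 over all genes. LARS2, the mitochondrial leucyl enzyme, was the exception. Its normalised count was 28.0 and 145.8 with DMSO, 43.9 and 232.3 with MS8815, 274.6 and 280.3 with EPZ-6438, and 515.6 and 373.0 with MS8815N. The replicates of the DMSO and MS8815 groups differed several-fold, more than those of the other members, and LARS2 is left out of the plots by gene.

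**Figure D1:**
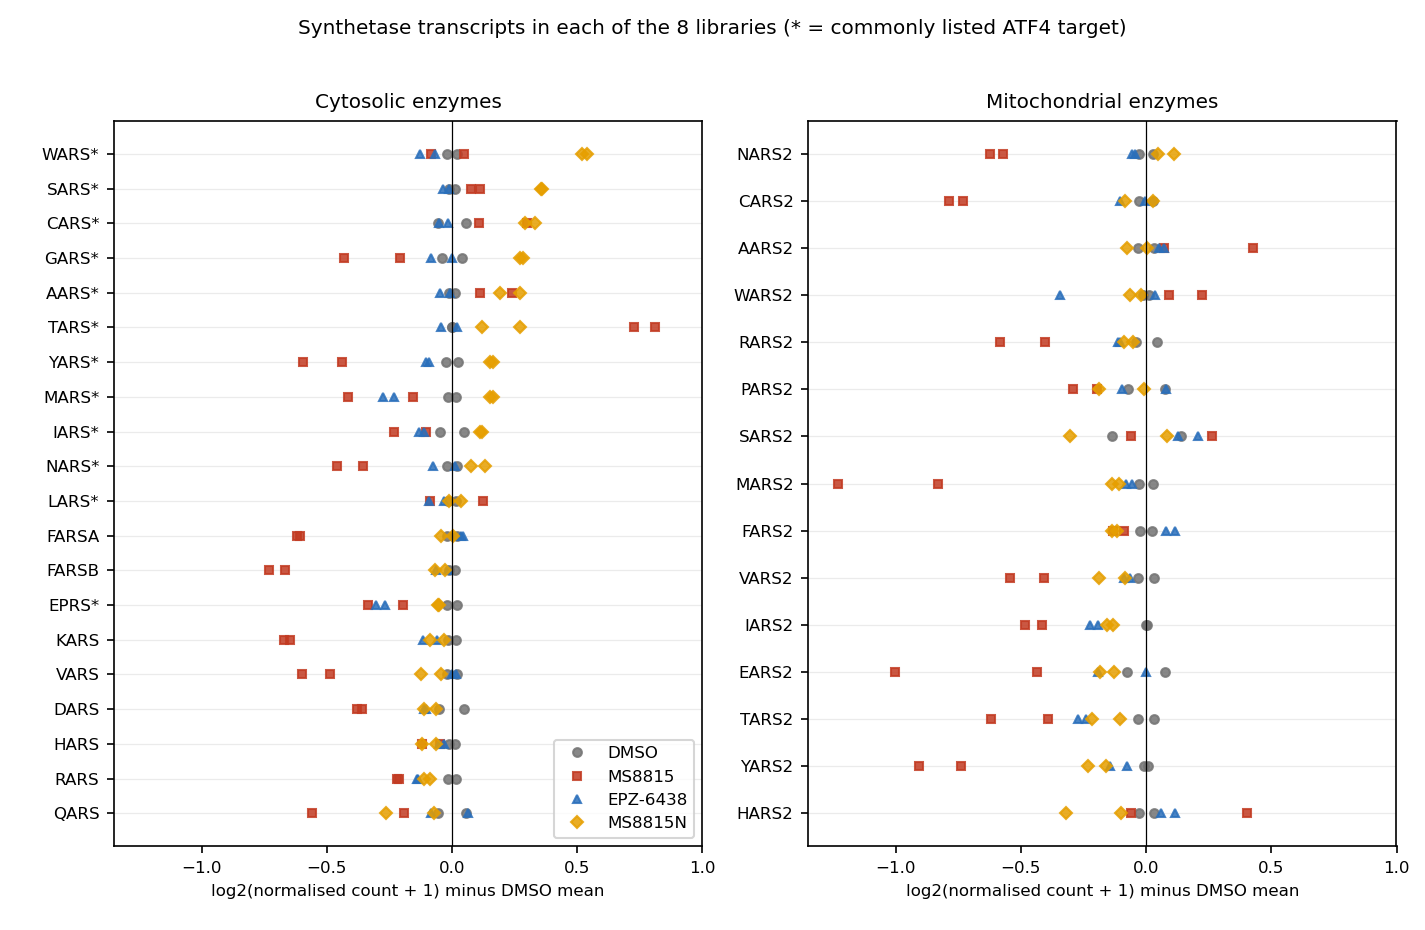
Each synthetase transcript in each of the 8 libraries, as log2(normalised count + 1) minus the mean of the 2 DMSO libraries, with cytosolic enzymes on the left and mitochondrial enzymes (without LARS2) on the right, ordered by the MS8815N value. The MS8815N diamonds of WARS, SARS and GARS lie to the right of the other groups, the MS8815 squares of TARS lie farthest to the right, and most other MS8815 squares lie to the left of 0.

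Cells given MS8815N were set against DMSO to see the effect of the analog alone. WARS, SARS and GARS, the tryptophanyl, seryl and glycyl enzymes, rose, and no synthetase gene fell. They are 3 of 20 cytosolic genes, where 0.288% of all 18398 genes were called higher, 0.245% lower and 0.533% in either direction (limma, Benjamini-Hochberg adjusted p under 0.05 over all genes). All 3 are among the 12 ATF4-listed genes, a list that was chosen with earlier results of these data known. Of the 16 mitochondrial genes, limma called 0, with 4 at an unadjusted p under 0.05, as were 15.7% of all genes.

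WARS (GRCh38 chromosome 14, 100333788 to 100376805, minus strand) had normalised counts of 9153.4 and 9030.0 with MS8815N and 6216.5 and 6383.7 with DMSO. Both MS8815N libraries were above both DMSO libraries, and the log2 fold change was 0.53 ± 0.03 (SE, limma adjusted p = 0.00408), or 1.44-fold. SARS (chromosome 1, 109213918 to 109238169, plus strand) had 8335.9 and 8348.5 against 6566.2 and 6457.4. The groups did not overlap, and SARS rose by 0.36 ± 0.03 on the log2 scale (limma adjusted p = 0.00785). GARS (chromosome 7, 30594681 to 30634033, plus strand) had 10403.4 and 10509.0 against 8866.6 and 8386.2, a rise of 0.28 ± 0.04 (limma adjusted p = 0.0329). These calls rest on all 4 libraries, except that WARS remained called without DMSO replicate 2. The count of cytosolic genes called was 0 without DMSO replicate 1 and 0 without either MS8815N library, and it was 1 (WARS) without DMSO replicate 2, while the fold changes stayed at 0.51 to 0.55 for WARS, 0.35 to 0.37 for SARS and 0.24 to 0.32 for GARS. It was 7 when the lower 50% of genes by level was removed or the trend was left out of the limma prior, which adds AARS, CARS, MARS and YARS. In a fit of all 8 libraries GARS was not called (adjusted p = 0.154). In the same comparison 1 of 24 epithelial and fibroblast genes rose (median 0.409) and 0 of 26 B-cell genes changed (median -0.052), and their part in the synthetase values was not tested.

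Most ATF4-listed genes lay above 0 and the other cytosolic genes below it. This split is described without a test, since the list was chosen with earlier results known. Of the 12 listed genes, 11 had a log2 fold change above 0 and in 10 both MS8815N libraries were above both DMSO libraries, with a group median of 0.177. Over all genes, 23.5% had MS8815N libraries that lay entirely above DMSO, and the median was 0.004. Besides the called genes, CARS, the cysteinyl enzyme, was at 0.31 ± 0.05 (adjusted p = 0.0655), and AARS, the alanyl enzyme, at 0.23 (adjusted p = 0.0709). MARS (methionyl) and YARS (tyrosyl) were each at 0.16. EPRS, which carries the glutamyl and prolyl activities in 1 chain, was the listed gene below 0, at -0.05. All 8 other cytosolic genes were below 0, with a median of -0.086 and a range down to -0.17 for QARS, and in 7 of them both MS8815N libraries were below both DMSO libraries, as in 23.2% of all genes. None of the 8 was called, with 2 at an unadjusted p under 0.05. Their median was -0.03 after quantile normalisation and -0.033 with B-cell scaling, and that of the listed genes was 0.226 and 0.23. The 8 enzymes of the multisynthetase complex, a cytosolic assembly of EPRS, IARS, LARS, QARS, MARS, KARS, RARS and DARS, had a median of -0.057 and none called. Structural class did not divide the genes in the same way, with medians of 0.063 for the 10 cytosolic genes of class I and 0.042 for the 10 of class II.

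Of the mitochondrial genes, 14 of 16 were below 0, with a median of -0.116. In 10 of them both MS8815N libraries were below both DMSO libraries, as in 23.2% of all genes. The mitochondrial median was -0.105 after quantile normalisation and -0.063 with B-cell scaling, where that of all genes was -0.003 and 0.057. IARS2, the mitochondrial isoleucyl enzyme (chromosome 1, 220094102 to 220148041), had 6249.7 and 6360.2 with MS8815N against 6984.6 and 6961.8 with DMSO. Both were lower, at -0.15 ± 0.03, and this was not called (limma adjusted p = 0.093). LARS2 had the smallest p of the mitochondrial genes, at 2.75 ± 0.66 (adjusted p = 0.0746), and rests on the DMSO libraries that differ from each other. YARS2, the mitochondrial gene with the motif letters, was at -0.20 and not called.

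The genes around the synthetases gave the following counts with MS8815N, beside 0.288% of all genes higher and 0.245% lower. Of 15 ATF4 metabolic target genes, 8 rose and none fell, with a median of 0.29. PCK2, mitochondrial phosphoenolpyruvate carboxykinase, had 1811.6 and 1917.5 against 919.6 and 877.7 with DMSO, a rise of 1.05 ± 0.06 (limma adjusted p = 0.00412). ASNS, which makes asparagine, and PSAT1, of serine synthesis, rose by 0.69 ± 0.05 and 0.63 ± 0.03. Of 15 regulators of the stress response 3 rose, namely ATF5, TRIB3 and CEBPB, and none fell. The transcription factor ATF5 went from 7320.7 and 7345.4 to 14323.0 and 14190.9. TRIB3, a pseudokinase that restrains the response, rose by 0.39 ± 0.05 (limma adjusted p = 0.0426), and CEBPB, a partner of ATF4, was at the threshold with 0.53 ± 0.07 (adjusted p = 0.05). The ATF4 transcript itself had 12593.4 and 12756.4 against 11630.2 and 12073.2, a difference of 0.10 ± 0.03 that was not called (adjusted p = 0.182). Of 19 partners of charging (assembly scaffolds, transfer-RNA processing and export factors, and the glutaminyl amidotransferase of mitochondria) none was called. With any 1 library left out, TRIB3, CEBPB, PCK2 and ASNS lost their calls at 0.37 to 0.41, 0.48 to 0.58, 1.01 to 1.09 and 0.64 to 0.74. ATF5 kept its call without either DMSO library, PSAT1 kept it only without DMSO replicate 2, and they had 0.95 to 0.97 and 0.61 to 0.65.

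Cells given EPZ-6438 were set against DMSO to see the effect of blocking the enzyme while the protein stays. No synthetase gene was called by limma on the deposited values, where 0.0328% of all 18320 genes (6) were called (0.0164% lower and 0.0164% higher). At an unadjusted p under 0.05 there were 8 cytosolic and 3 mitochondrial genes, and 16.8% of all genes. The fit on log2(normalised count + 1) called EPRS and MARS, and limma without the trend and the fit on the upper 50% of genes by level called these and IARS2. As deposited, the medians were -0.043 for cytosolic and -0.062 for mitochondrial genes, against 0.006 for all genes, and 18 of 20 cytosolic genes were below 0. After quantile normalisation the medians were 0.01 and -0.038, against -0.005 for all genes, and 9 of the 36 members changed sign. The small cytosolic difference thus depends on the scaling.

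Apart from LARS2 (2.09 ± 0.65, adjusted p = 0.137), the largest differences with EPZ-6438 were negative and missed the threshold in the deposited values. EPRS (chromosome 1, 219968601 to 220046658) had 8081.5 and 7876.8 against 9841.0 and 9589.7 with DMSO. Both were lower, at -0.28 ± 0.03 (limma adjusted p = 0.0558). MARS (chromosome 12, 57475445 to 57517569) had 9353.7 and 9628.8 against 11430.5 and 11190.5, also lower in both, at -0.25 ± 0.03 (adjusted p = 0.0558). IARS2 had 6108.0 and 5970.1 against 6984.6 and 6961.8, at -0.21 ± 0.03 (adjusted p = 0.0762). TARS2, the mitochondrial threonyl enzyme, had 1713.4 and 1750.1 against 2023.0 and 2114.9, at -0.26 ± 0.05 (adjusted p = 0.107). In these 4 genes the EPZ-6438 libraries were entirely below DMSO, as in 23.8% of all genes. The 12 ATF4-listed genes had a median of -0.052 and the other cytosolic genes one of -0.041 (0.008 and 0.01 after quantile normalisation). The 15 metabolic targets, 15 regulators and 19 charging partners had 0 called.

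MS8815N and EPZ-6438, given at the same dose for the same time, could be compared directly after the tables were put on 1 scale. Of the 36 synthetase genes, 10 were higher with MS8815N than with EPZ-6438 and none was lower, where 1.49% of the 17467 genes were higher, 1.05% lower and 2.54% differed in either direction (limma, p adjusted over all genes of the 3 compound pairs). All 10 were cytosolic and ATF4-listed, which is a description, since the list was chosen with earlier results of these data known. In all 12 listed genes both MS8815N libraries were above both EPZ-6438 libraries, as in 20.4% of all genes, and their median was 0.257 against -0.001 over all genes. None of the 8 other cytosolic genes (median -0.029) and none of the 16 mitochondrial genes (median -0.056) was called, with 0 and 1 at an unadjusted p under 0.05, as were 6.13% of all genes. After quantile normalisation 10 cytosolic and 0 mitochondrial genes were higher. With B-cell scaling 11 cytosolic and 2 mitochondrial genes were higher, where 716 of all genes were higher and the median of all genes was 0.048.

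WARS had the largest of these differences, with 9153.4 and 9030.0 against 5760.9 and 6005.0, or 0.63 on the log2 scale (95% confidence interval 0.52 to 0.74, limma adjusted p = 2.4e-05). SARS had 8335.9 and 8348.5 against 6458.6 and 6357.0, a difference of 0.38 (0.31 to 0.45, adjusted p = 3.99e-05). MARS had 12662.7 and 12572.8 against 9353.7 and 9628.8, a difference of 0.41 (0.25 to 0.57, adjusted p = 0.00218). For MARS the DMSO libraries lay well apart from both compounds and between them, whereas for SARS the EPZ-6438 and DMSO libraries overlapped. YARS, with 10172.7 and 10072.4 against 8515.0 and 8450.0, differed by 0.26 (0.14 to 0.37). IARS and AARS, the isoleucyl and alanyl enzymes, differed by 0.24 (0.13 to 0.35) and 0.26 (0.14 to 0.38). CARS, GARS, EPRS and TARS followed at 0.35, 0.32, 0.23 and 0.21. For EPRS the MS8815N libraries, at 9365.5 and 9341.4, lay below the DMSO libraries, at 9841.0 and 9589.7. Its EPZ-6438 libraries lay lower still, at 8081.5 and 7876.8. The listed genes that were not called were NARS, at 0.13 (0.02 to 0.25), and LARS, at 0.07 (-0.08 to 0.22). Of the others, KARS was at 0.03 (-0.06 to 0.11) and FARSA at -0.06 (-0.14 to 0.02). The count was 8 to 10 with 1 library of either compound left out. It was 6 without the trend, namely AARS, CARS, MARS, SARS and WARS higher and FARS2 lower. Of the epithelial and fibroblast genes 1 of 24 was higher with MS8815N (median 0.124), and of the B-cell genes 1 of 26 was higher and 1 lower (median -0.047).

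**Figure D2:**
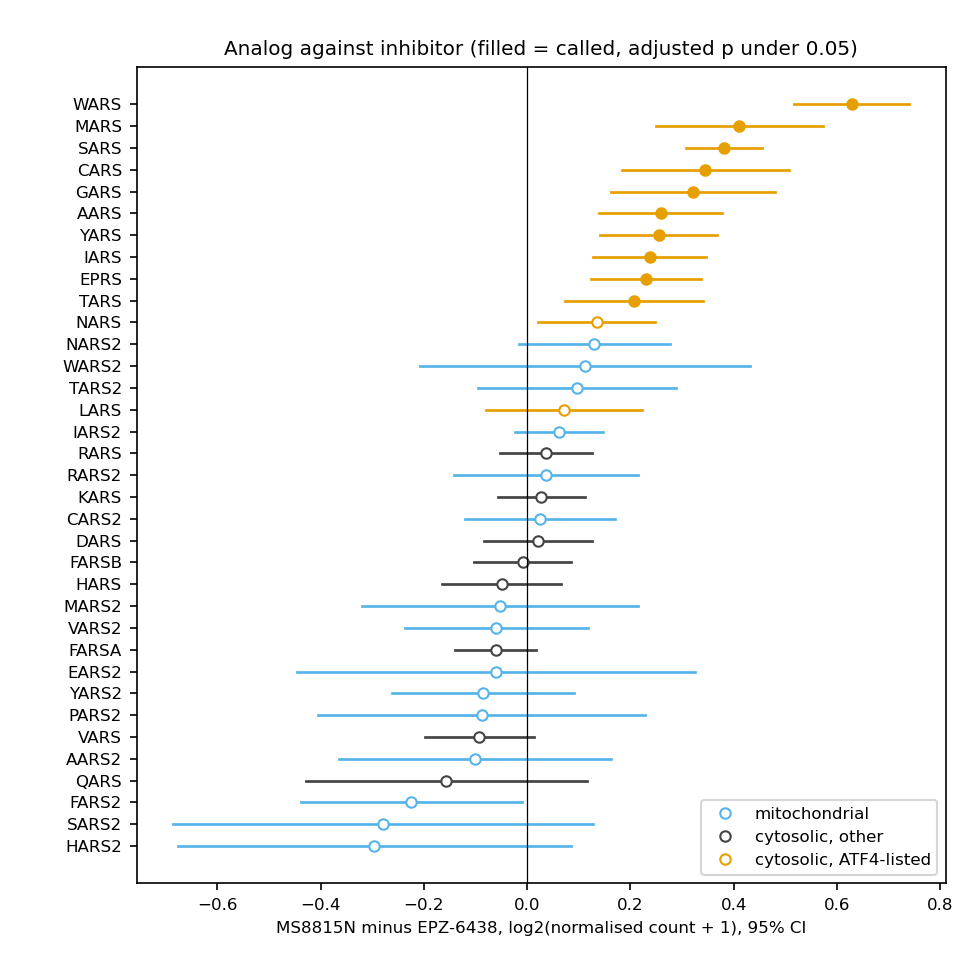
Difference between MS8815N and EPZ-6438 for 35 synthetase transcripts (without LARS2), as a log2 difference with its 95% confidence interval from limma on 8 libraries, and filled points at an adjusted p under 0.05. The 10 filled points are cytosolic genes of the ATF4-listed group, from 0.21 for TARS to 0.63 for WARS, and the other cytosolic and the mitochondrial genes lie around 0.

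The surrounding genes differed between these compounds as follows, beside 1.49% of all genes higher and 1.05% lower. Of the 15 metabolic targets 9 were higher with MS8815N and none lower, with PSAT1 at 0.71 ± 0.04, PCK2 at 0.91 ± 0.09 and SLC7A5, the large neutral amino acid transporter, at 0.38 ± 0.03. Of the regulators 7 were higher and 1, GCN1, lower, which was not called under the other 2 scalings. ATF5 was at 1.01 ± 0.04, SESN2, a leucine sensor, at 0.42 ± 0.08, and ATF4 at 0.15 ± 0.03 (limma adjusted p = 0.00355, and adjusted p = 0.0993 without the trend). Of the 19 charging partners 1 was higher, XPOT, the nuclear exporter of transfer RNA, with 13484.9 and 12383.9 against 9116.3 and 9374.9, a difference of 0.48 ± 0.05 (adjusted p = 0.000121). XPOT had 11098.3 and 10976.7 with DMSO, between the compounds, and was called against DMSO for neither.

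Cells given MS8815 were set against DMSO to see the effect of the degrader on the same genes. As deposited, 21 of 36 synthetase genes fell and 1, TARS, rose, where 22.4% of all 18744 genes fell, 24.5% rose and 46.9% changed (limma adjusted p under 0.05). Of the cytosolic genes 12 fell and of the mitochondrial genes 9, with medians of -0.275 and -0.463 against 0 for all genes. These counts depend on the scaling. After quantile normalisation 6 cytosolic genes were higher and 5 lower, and 11 mitochondrial genes were lower and none higher, with the median of all genes at -0.2. After scaling to B-cell genes all 20 cytosolic and 12 mitochondrial genes were higher and none was lower, with the median of all genes at 0.977. Of all genes called, the share that was higher was 52.3% as deposited, 40.6% with quantile normalisation and 98.8% with B-cell scaling. In the same libraries 24 of 26 B-cell genes were lower, with a median of -1.003, and 24 of 27 epithelial and fibroblast genes were higher, with a median of 3.96, and their part in the synthetase values was not tested. The cytosolic median was -0.275 against 0 for all genes as deposited, 0.021 against -0.2 after quantile normalisation and 0.728 against 0.977 after B-cell scaling. It thus lay above that of all genes after quantile normalisation and below it as deposited and with B-cell scaling. The mitochondrial median was below that of all genes in each, at -0.463, -0.516 and 0.539. Without DMSO replicate 1 the deposited values gave 7 cytosolic and 3 mitochondrial genes called, and without DMSO replicate 2 they gave 8 and 4.

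TARS, the cytosolic threonyl enzyme (chromosome 5, 33440696 to 33469539, plus strand), was the synthetase gene higher under all 3 scalings with the largest value in each. Its normalised counts were 6600.5 and 7004.9 with MS8815 and 3990.5 and 3986.3 with DMSO, so the groups were far apart. The log2 fold change was 0.77 ± 0.05 as deposited (limma adjusted p = 0.000157), 1.05 with quantile normalisation and 1.77 with B-cell scaling. The EPZ-6438 libraries had 3869.4 and 4043.8, around the DMSO level, and the MS8815N libraries 4330.9 and 4818.7.

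The genes with the smallest p among those that fell had opposite signs under the scaling to B-cell genes. KARS, the lysyl enzyme (chromosome 16, 75627474 to 75648643), had 5327.9 and 5240.0 against 8259.3 and 8447.2, or -0.66 ± 0.04 as deposited (adjusted p = 0.000127), -0.35 after quantile normalisation and 0.34 with B-cell scaling. FARSB (chromosome 2, 222570536 to 222656337) had 3561.9 and 3411.8 against 5705.8 and 5612.3, or -0.70 ± 0.05, -0.44 and 0.30. Its partner subunit FARSA (chromosome 19, 12922479 to 12934037) had 4964.0 and 5003.9 against 7514.5 and 7741.0, or -0.61 ± 0.04, -0.32 and 0.39. Both subunits of the phenylalanyl enzyme thus moved by like amounts under each scaling. VARS, the valyl enzyme (chromosome 6, 31777518 to 31795953), had 5855.8 and 6330.2 against 8978.8 and 8745.7, or -0.54 ± 0.05, -0.23 and 0.46. CARS2, the mitochondrial cysteinyl enzyme (chromosome 13, 110641412 to 110713603), had 1535.9 and 1476.2 against 2602.2 and 2499.8, or -0.76 ± 0.07, -0.63 and 0.24. MARS2, the mitochondrial methionyl enzyme, had the lowest fold change of the members, with 738.6 and 973.8 against 1766.5 and 1701.6. It was at -1.03 ± 0.14 as deposited, -1.03 after quantile normalisation and -0.03 with B-cell scaling, where it was not called (adjusted p = 0.904).

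**Figure D3:**
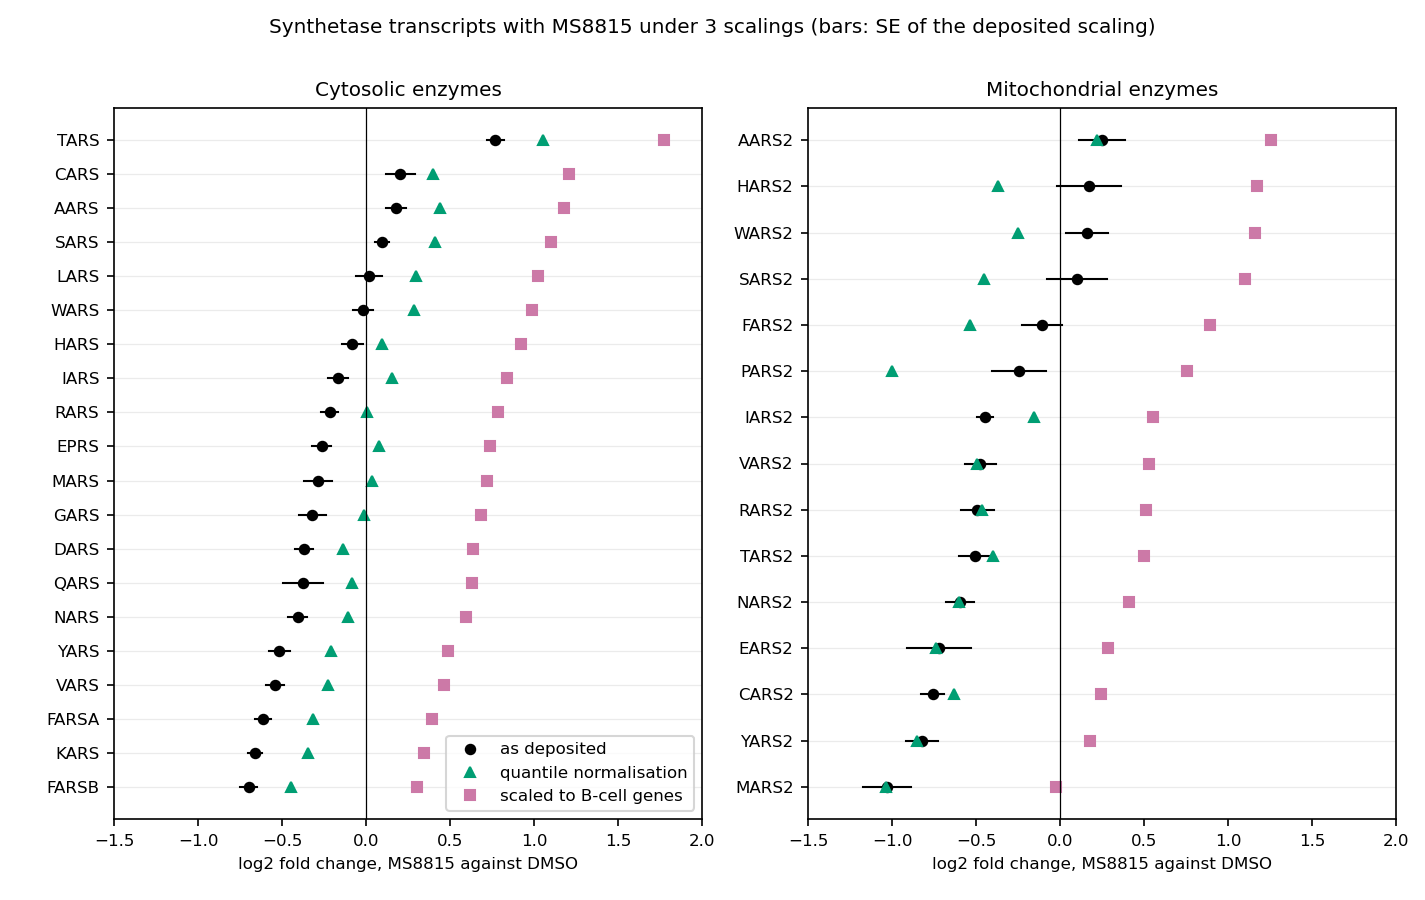
Log2 fold change of each synthetase transcript (without LARS2) with MS8815 against DMSO as deposited (circles, with SE), with quantile normalisation (triangles) and with B-cell scaling (squares), cytosolic on the left and mitochondrial on the right. TARS is above 0 under each scaling, whereas KARS, FARSA and FARSB are below 0 under the first 2 and above 0 under the third.

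The difference between genes within a library does not depend on a single scaling factor. The median of the ATF4-listed genes minus that of the other cytosolic genes, each relative to DMSO, was 0.393 and 0.399 in the MS8815 libraries and 0.242 and 0.239 in the MS8815N libraries. It was 0.006 and -0.031 in the EPZ-6438 libraries and 0.003 and -0.003 in the DMSO libraries. In the MS8815N libraries the listed genes were above DMSO (medians 0.164 and 0.172) and the others slightly below (-0.078 and -0.066). In the MS8815 libraries, as deposited, the listed genes were near DMSO (-0.094 and -0.122) and the others well below (-0.487 and -0.522), as were the mitochondrial genes (-0.477 and -0.401). As deposited, 1 of the listed genes rose and 5 fell with MS8815, and 7 of the other 8 cytosolic genes fell. Of all genes, 24.5% rose and 22.4% fell. These counts depend on the scaling. After quantile normalisation 6 cytosolic genes were higher and 5 lower, and with B-cell scaling all 20 were higher. The group medians above are descriptions without a test, since the lists were chosen with earlier results known.

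**Figure D4:**
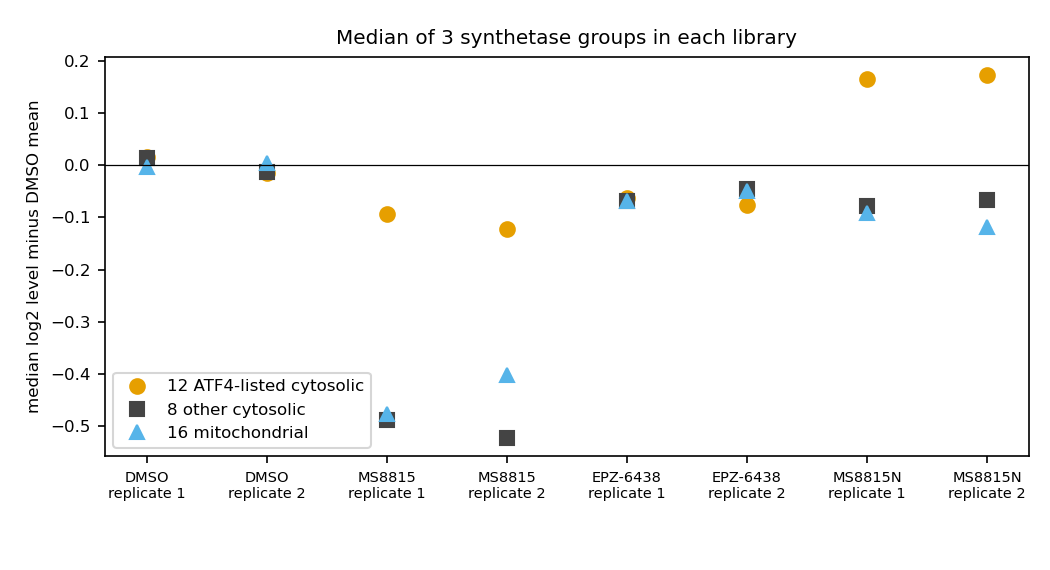
Median log2 level of 12 ATF4-listed cytosolic, 8 other cytosolic and 16 mitochondrial synthetases in each library, minus the mean of the DMSO libraries. The listed genes lie above the others by 0.242 and 0.239 in the MS8815N libraries and by 0.393 and 0.399 in the MS8815 libraries, and the 3 groups lie together with DMSO and EPZ-6438.

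The surrounding genes gave the following counts with MS8815, beside 24.5% of all genes higher and 22.4% lower as deposited. Of the 15 stress response regulators, 8 rose and 4 fell as deposited (median 0.557), 8 were higher and 1 lower after quantile normalisation (median 0.422), and all 15 were higher with B-cell scaling (median 1.559). PPP1R15A, which directs dephosphorylation of eIF2, had 3356.9 and 3347.3 against 802.5 and 881.8. It rose by 1.99 ± 0.08 (limma adjusted p = 2.52e-05), with 2.06 and 2.996 under the other scalings, while with MS8815N it was at 0.04 ± 0.08. DDIT4, an inhibitor of mTORC1, was at 1.70 ± 0.07, 1.87 and 2.70, and CEBPB at 1.37 ± 0.08, 1.37 and 2.38. These 3 genes were thus higher under each scaling, whereas the direction of ATF5 was not stable, with values of -0.32 ± 0.05, then -0.02 (limma adjusted p = 0.696) and 0.68 in the same order. No scaling takes out transcripts of other cells, and the part of the epithelial and fibroblast transcripts in the values of surrounding genes with MS8815 was not tested. Of the 15 metabolic targets, 6 rose and 5 fell as deposited (median -0.113), 9 were higher and 2 lower after quantile normalisation (median 0.181), and 14 were higher and none lower with B-cell scaling (median 0.89). The amino acid transporter SLC38A2 was higher under each, at 1.41 ± 0.06, 1.66 and 2.42, as was the cystine transporter SLC7A11, at 1.33 ± 0.08, 1.45 and 2.33. ALDH18A1, of proline synthesis, was at -0.71 ± 0.05, -0.44 and 0.30. Of the 19 charging partners, 12 fell and none rose as deposited (median -0.405), 14 were lower and 1 higher after quantile normalisation (median -0.4), and 15 were higher and none lower with B-cell scaling (median 0.594). QRSL1, a subunit of the mitochondrial glutaminyl amidotransferase, was at -1.08 ± 0.08, -0.93 and -0.07, and in the last it was not called. DTD1, a deacylase that clears mischarged transfer RNA, was at -0.60 ± 0.06, -0.40 and 0.40, and ELAC2, which trims the 3′ ends of transfer RNA, at -0.55 ± 0.06, -0.29 and 0.45.

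MS8815 was also compared with its analog. As deposited, 22 synthetase genes were lower with MS8815 than with MS8815N and 1, TARS, was higher, where 24.6% of the 17467 genes were lower, 22.7% higher and 47.3% different in either direction. Quantile normalisation gave 19 lower and 3 higher, and B-cell scaling gave 33 higher and none lower, with medians of all genes at -0.046, -0.185 and 0.864. WARS was lower by 0.55 on the log2 scale as deposited (95% confidence interval -0.66 to -0.44, limma adjusted p = 5.09e-05), at -0.30 after quantile normalisation and higher by 0.38 with B-cell scaling. YARS was at -0.68 (-0.79 to -0.56, adjusted p = 1.8e-05), -0.42 and 0.25. FARSA, KARS, FARSB and CARS2 were at -0.59, -0.60, -0.65 and -0.73 as deposited, at -0.34, -0.35, -0.47 and -0.66 after quantile normalisation and between 0.19 and 0.33 with B-cell scaling. TARS was higher by 0.57 (0.44 to 0.71, adjusted p = 0.000114), 0.82 and 1.4985. Of the surrounding genes, ATF5 was lower with MS8815 under each scaling, at -1.28 ± 0.04, -1.04 and -0.36, and PPP1R15A was higher, at 1.96 ± 0.07, 2.07 and 2.88.

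Against EPZ-6438, 17 synthetase genes were lower and 4 higher with MS8815 as deposited, where 24.7% of genes were lower, 22.8% higher and 47.5% different in either direction. After quantile normalisation 15 were lower and 9 higher, and after B-cell scaling 33 were higher and none lower. The 4 higher genes were TARS at 0.78 (0.65 to 0.92, adjusted p = 1.98e-05), CARS at 0.24 (adjusted p = 0.0327), AARS at 0.20 (adjusted p = 0.017) and SARS at 0.12 (adjusted p = 0.0228), all of the ATF4-listed group. They were also higher after quantile normalisation, at 1.02, 0.38, 0.43 and 0.37, and with B-cell scaling, at 1.76, 1.21, 1.18 and 1.09. FARSA, FARSB, KARS, VARS and CARS2 were at -0.65, -0.66, -0.57, -0.55 and -0.70 as deposited, at -0.41, -0.48, -0.33, -0.30 and -0.64 after quantile normalisation and at 0.32, 0.32, 0.40, 0.42 and 0.27 with B-cell scaling. None of the 3 compound pairs shows whether 2 compounds act alike on a gene that was not called. The intervals above hold only for the deposited scaling and the spread between libraries. Values under the other scalings can lie outside them, as for WARS and YARS with MS8815 against MS8815N.

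Some of these genes share exons with others in GENCODE 29, and the strand setting of the counting is not given in the sources used here. SARS2 shares 67.4% of its exon bases with AC011455.2, a read-through gene on the same strand, so its counts are uncertain. YARS shares 12.2% with S100PBP and WARS 6.76% with WDR25, both on the opposite strand, and HARS and HARS2, which lie head to head, share 10.3% and 14.2% with each other. MARS shares 2.13% with DDIT3, itself a gene of the stress response. SARS, TARS, KARS, EPRS and IARS2 share none.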

How the data were processed

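Deposited were 3 tables of 18744, 18320 and 18398 genes, one per compound with the same 2 DMSO libraries. Per the table names and the values, the authors deposited log2-like numbers from the variance-stabilising transform of DESeq2, computed per table. Per the submitters' processing notes, STAR 2.4.2, Salmon and GRCh38 were used. The transform was inverted to normalised counts, and the tables were joined onto the MS8815N table through the DMSO libraries, whose values in any 2 tables differ by a constant of the gene plus one of the library (largest deviation 7e-11). Joining and inversion change no comparison within a table.

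Each compound was tested against DMSO within its table by limma 3.58.1 (R 4.3.3) with a trended prior on the deposited values, two-sided, with 2 residual degrees of freedom and Benjamini-Hochberg adjustment over all genes. A gene was called at an adjusted p under 0.05, and "rose" and "fell" mean called. Fold changes and SEs came from log2(normalised count + 1), which understates changes of low genes. Against DMSO they are thus on another scale than the p-values. Pairs of compounds were tested on all 8 joined libraries with 4 residual degrees of freedom. No gene was filtered. The scaling to B-cell genes used 25 or 26 of them with a mean of at least 100. Limma takes that factor as exact. The scripts were checked on simulated data.

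Per-kb levels use the GENCODE 29 transcript with the longest coding sequence, chosen after the data were seen. Depth was estimated from low values, of which 40.2% to 63.5% lay within 0.02 of whole reads. The members and gene lists were chosen with earlier results of these data known. Named genes are the called members (the 6 with the smallest p, or the 2 of each compartment with the smallest p where few are called) and up to 3 called genes of each pathway list. MARS2, LARS2, YARS2, other listed genes with their values, and ATF4 and ATF5 in some comparisons were named after their values were seen.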

Additional observations from a re-analysis of the deposited data

How the results depend on the processing

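Leaving out 1 library gave 7 to 14 cytosolic and 3 to 10 mitochondrial calls for MS8815 against DMSO (13 and 9 with all), 0 for EPZ-6438, 0 to 1 cytosolic and 0 mitochondrial calls for MS8815N (3 and 0), 8 to 10 for MS8815N against EPZ-6438 (10), 21 to 27 for MS8815 against MS8815N (23) and 15 to 22 for MS8815 against EPZ-6438 (21). A lone library was then assumed to vary like the other group. Same-numbered libraries did not deviate together (correlations of replicate differences across 11165 genes of -0.037 to 0.083), so the numbers pair nothing. With a replicate block MS8815N had 7 cytosolic calls and 1 mitochondrial (LARS2), as it did with the lower 50% of genes removed. Without the trend it had 7 cytosolic calls, and with B-cell scaling 6. EPZ-6438 had 2 cytosolic calls on log2(count + 1), with the lower 50% removed and without the trend, and 1 mitochondrial call in the last 2. MS8815N against EPZ-6438 had 6 calls without the trend and 13 with B-cell scaling, 2 of them mitochondrial. With B-cell scaling MS8815 had 20 cytosolic calls against DMSO and 33 calls against EPZ-6438.

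Of the genes that the naming rule takes, scaling to B-cell genes reversed 27 values, all with MS8815. Over the 36 members it turned the sign of 25 with MS8815 against DMSO, 27 against MS8815N and 25 against EPZ-6438. ATF5 with MS8815 against DMSO went from -0.32 to 0.68. The same scaling turned 5 members in MS8815N against DMSO, 2 in MS8815N against EPZ-6438 and 0 in EPZ-6438 against DMSO. Quantile normalisation also turned signs. Against DMSO it turned 4 members under MS8815N, 9 under EPZ-6438 and 10 under MS8815. Between compounds it turned 10 in MS8815 against MS8815N, 6 in MS8815 against EPZ-6438 and 0 in MS8815N against EPZ-6438. With B-cell scaling, the reversed values against DMSO were KARS 0.34, FARSB 0.30, FARSA 0.39, CARS2 0.24, VARS 0.46, DTD1 0.40, ELAC2 0.45 and ALDH18A1 0.30. Against MS8815N they were FARSA 0.33, KARS 0.32, FARSB 0.27, YARS 0.25, CARS2 0.19, WARS 0.38, DTD1 0.26, QRSL1 0.061, YRDC 0.35, PSAT1 0.17 and ALDH18A1 0.25. Against EPZ-6438 they were FARSA 0.32, FARSB 0.32, KARS 0.40, VARS 0.42, CARS2 0.27, DTD1 0.32, YRDC 0.44 and ALDH18A1 0.28. The scaling itself shifts the median of all genes by 0.977 against DMSO. Of the other values of these genes under the alternatives, 305 against DMSO and 407 between compounds kept their direction and side of the threshold, 10 and 0 passed it, and 37 and 4 lost it, 36 of the 37 with MS8815N against DMSO. Apart from the scaling, the cause of these changes was not tested. LARS2 and PARS2 had the lowest levels per kb, and the MS8815 libraries the fewest reads, 13.0 and 14.6 M reads. What depth contributes to their spread was not tested.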
